A study of Mus musculus with 9 samples.

Results

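The 8 genes described here encode cytokines of the IL-6 and IL-10 families and the receptor chains that bind them. They are the 4 ligand genes *Il6*, *Il10*, *Lif* and *Osm* and the 4 receptor genes *Il6ra*, *Il6st*, *Il10ra* and *Il10rb*. The members were taken by gene symbol from a table of 55471 genes, and each symbol had 1 entry. RNA sequencing had been done on bone marrow-derived dendritic cells (DCs), which were grown from the marrow of wild-type female C57BL/6 mice 8 to 20 weeks old in 20 ng/mL GM-CSF. There were 3 unstimulated libraries, 3 libraries of DCs given 100 ng/mL LPS, a component of the bacterial outer membrane, and 3 libraries of DCs given 1000 U/mL IFN-β, an antiviral cytokine. All were collected at 6 h, every group had been cultured in GM-CSF, and the libraries of each group carry the letters A, B and C. The labels do not say whether the libraries of a group came from separate mice or cultures, so the p-values measure the spread between these libraries only, which may be technical.

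IL-6 is a cytokine of acute inflammation that binds IL-6Rα, the product of *Il6ra*, and then gp130, the product of *Il6st*. gp130 carries the signal for the whole family, including LIF and oncostatin M (the product of *Osm*), and activates JAK kinases and the transcription factor STAT3. IL-10 restrains the inflammatory output of macrophages and DCs, and its receptor pairs the ligand-binding chain IL-10Rα (*Il10ra*) with IL-10Rβ (*Il10rb*), a chain shared with the receptors of IL-22 and the λ interferons. Both families end in STAT3, and SOCS3, a STAT3 target, shuts off gp130 but has little hold on the IL-10 receptor.

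The DC markers were expressed in all libraries, as were macrophage genes. The summed level of 7 DC markers was 4405 to 5265 depth-scaled counts (CPM) in unstimulated libraries, 6181 to 6793 with LPS and 4918 to 5217 with IFN-β, while *Flt3*, a receptor of DC progenitors, was at a mean of 3.06, 3.49 and 2.65 CPM. The 6 macrophage markers summed to 2008 to 2549, 1995 to 2605 and 2730 to 3036 CPM, but they moved apart under LPS: the group means of *Csf1r* (1101 unstimulated and 562 CPM under LPS), *Mrc1* (407 and 162) and *Cd68* (350 and 301) were lower, and those of *Mertk* (121 and 404), *Fcgr1* (97.3 and 446) and *Adgre1* (158 and 369) were higher. The markers of T and NK cells, B cells, and mast cells and basophils each summed to at most 0.539 CPM, and those of granulocytes to at most 25.6 CPM. The 6 stromal markers rose together with LPS, from 3.17 to 5.08 CPM in unstimulated libraries to 21.8 to 38.1 CPM, but *Pdgfrb* accounted for this (a mean of 0.714 and 23.5 CPM) while the other 5, the collagen genes among them, each had a mean of at most 1.95 CPM in any group. The part of any of these cells in the levels below was not tested. In bulk samples, fewer cells of a type and less RNA per cell cannot be told apart. The libraries held between 33425803 and 43735199 counts. The TMM scaling factors were 1.18 to 1.26 in unstimulated, 0.783 to 0.841 in LPS and 0.977 to 1.02 in IFN-β libraries, and scaling by library size alone shifted the median of all tested genes, on the log2 scale, by -0.58 (LPS), -0.31 (IFN-β) and 0.27 (IFN-β against LPS).

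All coordinates are of GRCm38. *Il6* lies at chr5:30013114-30019981 on the plus strand and *Il10* at chr1:131019845-131024974, also on the plus strand. *Osm* (chr11:4236420-4241026) and *Lif* (chr11:4257557-4272514) are neighbours on the plus strand of chromosome 11, with 16530 bases and 0 annotated genes between them. *Il6ra* lies at chr3:89864059-89913196 on the minus strand and *Il6st* at chr13:112464070-112510086 on the plus strand. *Il10ra* lies at chr9:45253837-45269149 on the minus strand and *Il10rb* at chr16:91406164-91425834 on the plus strand. *Il6ra* shares 242 exon bases with *Gm42809*, an antisense gene with 0 to 5 counts, and *Il10rb* shares 569 exon bases with *Gm21970*, a gene of the same strand with 0 counts in all 9 libraries. Reads from those bases could have been assigned to neither gene.

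RefSeq promoter sequences (build GRCm38.p6) were matched for 4 of the 8 genes: *Il6*, *Lif*, *Il6ra* and *Il6st*. The 250 bases before each annotated start are shown because these 4 genes include *Il6* and both chains of its receptor. Capitals mark matches, on either strand, to 7 motifs: NF-κB (GGGANNNNCC), AP-1 (TGAGTCA), the CRE core (ACGTCA), C/EBP (TTGNGNAA), the STAT element GAS (TTCNNNGAA), the interferon element ISRE (GAAANNGAAA) and SP1 (GGGCGG). The windows are chr5:30012864-30013113 (plus strand) for *Il6*, chr11:4257318-4257567 (plus) for *Lif*, chr3:89913197-89913446 (minus) for *Il6ra* and chr13:112463820-112464069 (plus) for *Il6st*. Each window ends just before the RefSeq start. The *Lif* window runs to 4257567, past the *Lif* start of 4257557 given above from the GENCODE annotation, so its end lies inside those gene coordinates.
Il6: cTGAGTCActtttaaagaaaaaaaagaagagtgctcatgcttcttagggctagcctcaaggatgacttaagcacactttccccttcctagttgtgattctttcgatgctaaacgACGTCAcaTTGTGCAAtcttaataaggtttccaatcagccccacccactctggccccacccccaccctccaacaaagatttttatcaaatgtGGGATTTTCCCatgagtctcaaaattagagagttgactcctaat
Lif: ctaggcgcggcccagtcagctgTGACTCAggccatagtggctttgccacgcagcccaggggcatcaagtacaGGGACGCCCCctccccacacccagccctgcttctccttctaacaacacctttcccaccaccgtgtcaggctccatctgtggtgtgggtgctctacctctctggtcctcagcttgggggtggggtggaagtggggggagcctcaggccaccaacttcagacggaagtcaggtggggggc
Il6ra: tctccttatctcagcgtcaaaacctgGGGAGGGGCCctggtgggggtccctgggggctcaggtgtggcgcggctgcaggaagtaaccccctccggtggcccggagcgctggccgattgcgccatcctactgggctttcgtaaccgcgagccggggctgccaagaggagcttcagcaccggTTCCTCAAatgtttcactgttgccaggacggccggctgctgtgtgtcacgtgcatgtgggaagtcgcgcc
Il6st: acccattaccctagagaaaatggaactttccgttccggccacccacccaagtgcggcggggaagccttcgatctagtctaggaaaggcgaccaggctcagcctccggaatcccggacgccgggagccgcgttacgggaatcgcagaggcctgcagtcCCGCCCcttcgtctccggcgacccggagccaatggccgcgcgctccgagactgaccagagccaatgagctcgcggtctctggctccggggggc
The *Il6* window held an NF-κB match 44 to 35 bases before the start, overlapped by a further match on the other strand at 43 to 34, an AP-1 match at 249 to 243, a CRE core at 136 to 131 and a C/EBP match at 128 to 121. The *Lif* window held an NF-κB match at 178 to 169 and an AP-1 match at 228 to 222. The *Il6ra* window held an NF-κB match at 224 to 215 and a C/EBP match at 70 to 63, and the *Il6st* window held an SP1 match at 93 to 88 only. Of 32851 promoter windows of the same length, 17.6% held the NF-κB letters, 4.46% AP-1, 6.47% the CRE core, 11.7% C/EBP, 7.02% GAS, 2.98% ISRE and 32.7% SP1. The GAS and ISRE letters did not occur in these 4 windows. GC content was 42.8% in the *Il6* window with 3 CpG dinucleotides, 63.6% in *Lif* with 6, 65.2% in *Il6ra* with 18 and 66.0% in *Il6st* with 26, beside a median of 52.4% and 6 CpG over all windows. These matches are letters in a window, not measured binding.

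All 8 genes passed the filter on low counts, so all were tested among 16260 genes. *Il10* passed only through its LPS libraries and therefore had to differ there. Its calls in comparisons with LPS are included in the counts below but are not a test. Under LPS 6 of the 8 genes were higher and 2 lower than in unstimulated DCs, where 32.8% of all tested genes were higher and 35.4% lower (edgeR quasi-likelihood test, adjusted p under 0.05). Under IFN-β 4 were higher, 2 were lower and 2 did not pass the test, where 23.6% of all tested genes were higher and 23.3% lower. The 4 ligands and both IL-10 receptor chains rose with LPS, and both IL-6 receptor chains fell. With IFN-β the same 6 genes other than *Il10* and *Lif* changed, each in the direction it had under LPS. How many of all tested genes kept their direction in this way was not counted. The comparison of IFN-β with LPS directly found 2 genes higher under IFN-β, *Il6ra* and *Il6st*, and 6 lower, where 25.8% of all tested genes were higher and 23.3% lower. The count of 2 higher there was close to the share over all tested genes, as was that of 2 lower under IFN-β against unstimulated. The 2 stimulus comparisons share the unstimulated libraries.

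**Figure D1:**
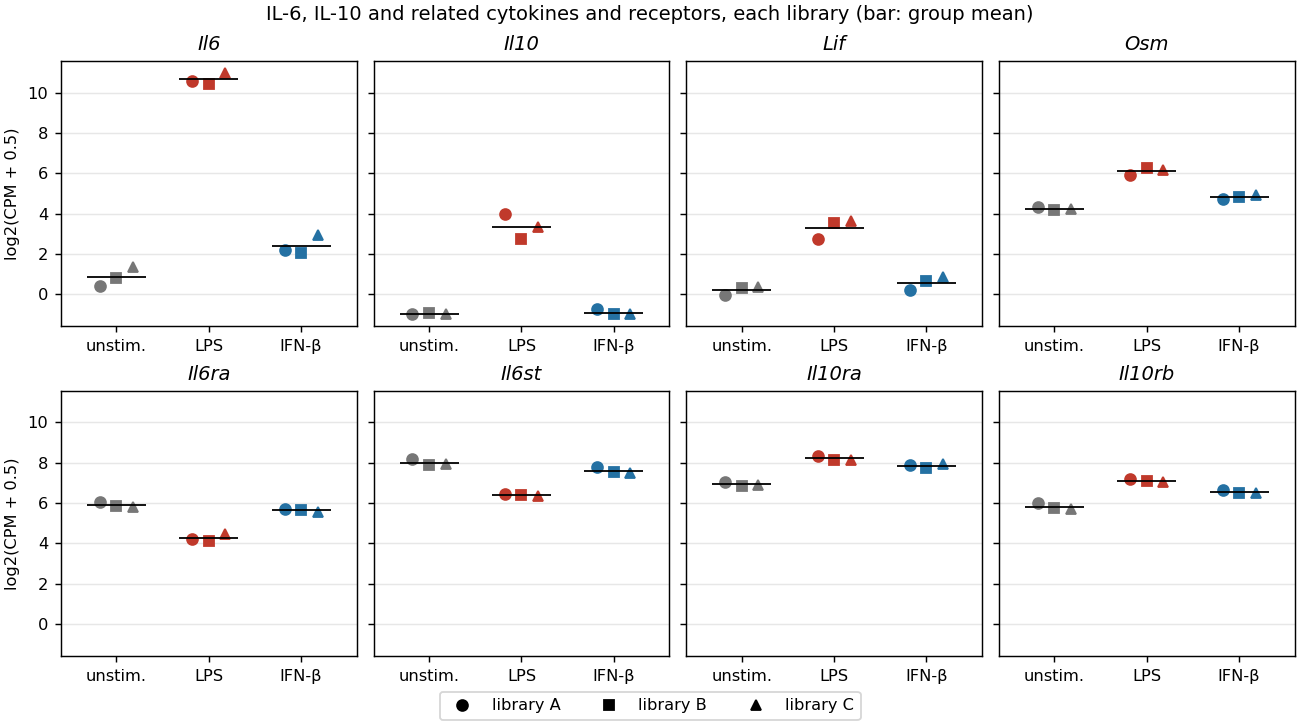
Level of each of the 8 genes in each library, as log2(CPM + 0.5) on the y axis, by condition on the x axis (unstim., unstimulated); symbols are libraries A, B and C and bars are group means of the plotted values. The LPS libraries lie below the unstimulated ones for *Il6ra* and *Il6st* and above them in the other panels. The IFN-β libraries overlap the unstimulated ones for *Il10* and *Lif*. How many of all tested genes separate in this way was not counted, while edgeR called 32.8% of them higher and 35.4% lower under LPS. *Il10* passed the filter on low counts only through the LPS libraries.

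*Il6* was close to silent in unstimulated DCs and among the most abundant transcripts under LPS. Libraries A, B and C had 33, 56 and 92 counts without a stimulus, 42635, 47499 and 64888 in the LPS and 173, 139 and 258 in the IFN-β libraries. The groups did not overlap, with LPS far above IFN-β and IFN-β above unstimulated. Mean levels were 1.39 ± 0.630 CPM unstimulated, 1629 ± 322 under LPS and 4.96 ± 1.89 under IFN-β (SD, n = 3 each). The rise under LPS was 1159-fold (log2 fold change 10.18 ± 0.38 SE, adjusted p = 7.3e-09, edgeR), and within the letters it was 1804-, 1100- and 960-fold. IFN-β raised *Il6* 3.52-fold (log2 1.81 ± 0.33, adjusted p = 0.00128), and within the letters by 4.85-, 2.93- and 3.43-fold. Direct comparison put IFN-β below LPS by 8.36 ± 0.35 on the log2 scale (log2 difference -8.36, adjusted p = 4.3e-08). Per length, in depth-scaled reads per kilobase of exon (RPKM), *Il6* stood at rank 64 of 16229 genes under LPS, rank 9151 under IFN-β and rank 12619 in unstimulated DCs. It took 0.116% to 0.168% of all counts in the LPS libraries.

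*Il10*, the anti-inflammatory ligand, was present in LPS libraries and at or near 0 elsewhere. Its counts were 0, 1 and 0 in unstimulated libraries, 431, 209 and 314 in the LPS and 4, 0 and 0 in the IFN-β libraries. Every LPS library was above all others, and the unstimulated and IFN-β libraries overlapped. The 0 counts allow levels of up to 0.0677 to 0.0829 CPM in those 4 libraries (3 counts per library), against a mean of 10.3 ± 4.62 CPM under LPS (SD, n = 3). Scaled for depth, the summed counts of 954 under LPS and 1 in unstimulated DCs give a ratio of 1287 with an exact 95% interval of 230 to 50874, and 954 against 4 under IFN-β give 292 (114 to 1075). These intervals cover counting error only. No p-value is given for the comparisons with LPS, since *Il10* passed the filter on low counts only through the LPS libraries. The log2 values that edgeR fitted for *Il10* turn on single libraries. The value of 9.86 for LPS became 11.57 without unstimulated library B. That of -8.10 for IFN-β against LPS became -11.58 without IFN-β library A. For IFN-β against unstimulated the 4 counts and 1 count give a ratio of 4.40 (0.436 to 217), with adjusted p = 0.479 from edgeR.

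*Lif*, whose product keeps stem cells undifferentiated and acts through gp130 and the LIF receptor, was a low transcript that rose with LPS. Its counts were 19, 32 and 34 in unstimulated libraries, 175, 382 and 386 in the LPS and 28, 40 and 47 in the IFN-β libraries. The LPS libraries lay above all others, and the IFN-β and unstimulated libraries overlapped. Mean levels were 0.656 ± 0.153, 9.73 ± 3.08 and 1.01 ± 0.325 CPM (SD, n = 3). LPS raised *Lif* 14.7-fold (log2 3.88 ± 0.32, adjusted p = 1.2e-06). For IFN-β the log2 difference was 0.59 ± 0.35 and did not pass the test (adjusted p = 0.197). With the library letter as a block it passed (log2 0.61 ± 0.19, adjusted p = 0.0136), and within the letters the IFN-β level was 1.36-, 1.48- and 1.69-fold that of the unstimulated library. Library A had the lowest *Lif* level in each of the 3 conditions, and library C had the highest *Il6* level in each.

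*Osm*, the neighbour of *Lif* and the fourth ligand, was already expressed without a stimulus and rose with both. Its counts were 768, 783 and 801 in unstimulated libraries, 1669, 2603 and 2318 in the LPS and 1095, 1030 and 1085 in the IFN-β libraries. The 3 groups did not overlap in CPM. Mean levels were 18.4 ± 0.973, 68.7 ± 8.67 and 27.7 ± 2.18 CPM (SD, n = 3). The rise was 3.74-fold under LPS (log2 1.90 ± 0.10, adjusted p = 5.6e-08) and 1.51-fold under IFN-β (log2 0.59 ± 0.10, adjusted p = 7.4e-04). The log2 difference of IFN-β from LPS was -1.31 ± 0.10 (adjusted p = 2.0e-06).

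The 2 chains of the IL-6 receptor fell together with LPS. *Il6ra*, which encodes the ligand-binding chain, had 2548, 2510 and 2453 counts in unstimulated libraries, 505, 585 and 693 in the LPS and 2204, 1868 and 1673 in the IFN-β libraries. Its mean level was 58.8 ± 5.05 CPM unstimulated, 18.7 ± 2.25 under LPS and 49.1 ± 2.74 under IFN-β (SD, n = 3), and the 3 groups did not overlap. The level under LPS was 3.14-fold lower than in unstimulated DCs (log2 -1.65 ± 0.10, adjusted p = 1.2e-07). With IFN-β the level was 1.20-fold lower (log2 -0.26 ± 0.09, adjusted p = 0.0432), a call that was lost without unstimulated library A (log2 -0.19, adjusted p = 0.146), unstimulated library B (-0.29, adjusted p = 0.0617), IFN-β library B (-0.26, adjusted p = 0.0875) or IFN-β library C (-0.22, adjusted p = 0.133). IFN-β stood above LPS by 1.39 ± 0.10 on the log2 scale (adjusted p = 1.2e-06).

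*Il6st*, which encodes gp130, fell to a like degree. It had 11217, 10435 and 10752 counts in unstimulated libraries, 2405, 2837 and 2585 in the LPS and 9284, 6996 and 6510 in the IFN-β libraries. Mean levels were 254 ± 26.7, 82.4 ± 2.85 and 194 ± 20.2 CPM (SD, n = 3), with no overlap between groups. The level under LPS was 3.08-fold lower (log2 -1.62 ± 0.10, adjusted p = 1.1e-07) and that under IFN-β 1.31-fold lower (log2 -0.38 ± 0.09, adjusted p = 0.00628). IFN-β stood above LPS by 1.24 ± 0.09 on the log2 scale (adjusted p = 2.3e-06).

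The 2 chains of the IL-10 receptor rose with both stimuli. *Il10ra*, which encodes the ligand-binding chain, had 5092, 5081 and 5291 counts in unstimulated libraries, 9108, 9722 and 9106 in the LPS and 10142, 7842 and 8851 in the IFN-β libraries. Mean levels were 121 ± 7.57, 295 ± 23.6 and 230 ± 19.2 CPM (SD, n = 3), without overlap. The rise was 2.44-fold under LPS (log2 1.29 ± 0.09, adjusted p = 3.3e-07) and 1.90-fold under IFN-β (log2 0.93 ± 0.09, adjusted p = 1.6e-05). IFN-β lay below LPS (log2 difference -0.36 ± 0.09, adjusted p = 0.0056), but with scaling by library size alone this difference was -0.08 with adjusted p = 0.326.

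*Il10rb*, the shared chain, had 2469, 2340 and 2272 counts in unstimulated libraries, 4060, 4635 and 4252 in the LPS and 4236, 3391 and 3281 in the IFN-β libraries. Mean levels were 55.5 ± 6.19, 136 ± 6.63 and 93.3 ± 5.14 CPM (SD, n = 3), again without overlap between groups. It rose 2.46-fold under LPS (log2 1.30 ± 0.09, adjusted p = 2.5e-07) and 1.68-fold under IFN-β (log2 0.75 ± 0.08, adjusted p = 5.4e-05). The log2 difference of IFN-β from LPS was -0.55 ± 0.08 (adjusted p = 3.2e-04).

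**Figure D2:**
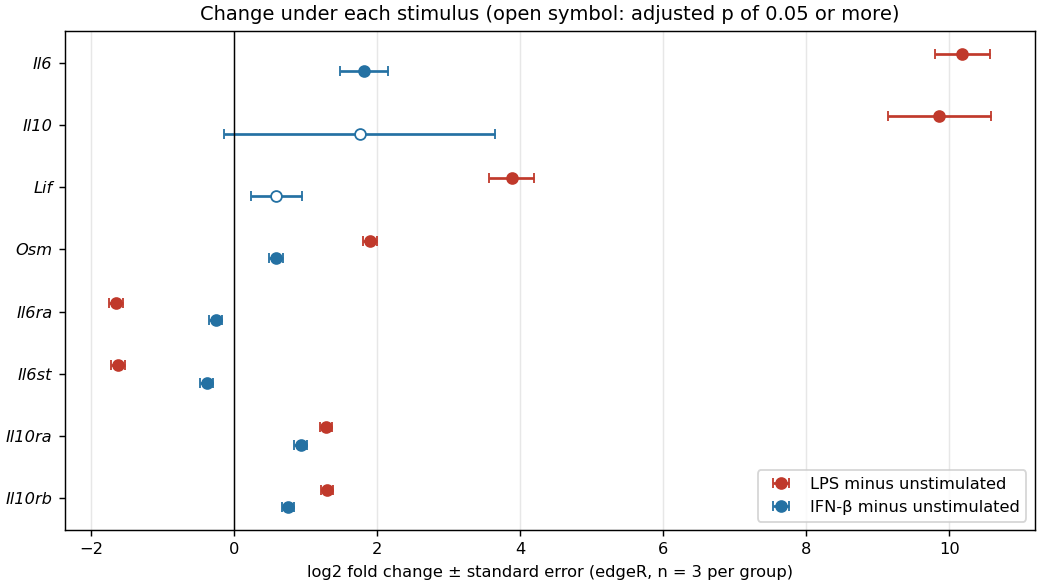
Log2 fold change of each gene against unstimulated DCs (x axis; bars, standard error from edgeR, n = 3 per group) under LPS (red) and IFN-β (blue), with open symbols where the adjusted p is 0.05 or more. The change under LPS runs from -1.65 for *Il6ra* to 10.18 for *Il6*. The fitted values of *Il10* rest on 0 to 4 counts in the unstimulated and IFN-β libraries. Its filled symbol under LPS is not a test, since *Il10* passed the filter on low counts only through the LPS libraries.

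Levels between genes were compared per length, as RPKM over the merged exons of each gene, which understates a gene with long or rarely used exons. In unstimulated DCs the order was *Il10ra* (34.5 RPKM), *Il6st* (22.9), *Il10rb* (14.6), *Osm* (8.09), *Il6ra* (6.80), *Il6* (0.572), *Lif* (0.151) and *Il10* (0.00571). With IFN-β the genes ranked *Il10ra* (65.8), *Il10rb* (24.5), *Il6st* (17.5), *Osm* (12.2), *Il6ra* (5.69), *Il6* (2.04), *Lif* (0.231) and *Il10* (0.0238). In neither order did the libraries of neighbouring genes overlap. Under LPS *Il6* led with 671 RPKM, followed by *Il10ra* (84.4), *Il10rb* (35.8), *Osm* (30.2), *Il10* (7.88), *Il6st* (7.42), *Lif* (2.24) and *Il6ra* (2.17). There *Il10* and *Il6st* overlapped in their library values, as did *Lif* and *Il6ra*. Without a stimulus the receptor chains *Il10ra*, *Il6st* and *Il10rb* thus held the highest levels, and under LPS the ligand *Il6* stood above every receptor gene.

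Ratios within a library compare 2 genes under the same scaling. The log2 ratio of *Il6ra* to *Il6st* per length was -1.75 ± 0.05 in unstimulated DCs, -1.78 ± 0.21 under LPS and -1.62 ± 0.09 under IFN-β (SD, n = 3), and all groups overlapped (exact permutation p = 1 for LPS, 0.2 for IFN-β, two-sided). The smallest p that 3 against 3 libraries allow is 0.1. The ratio of *Il10ra* to *Il10rb* was 1.25 ± 0.09, 1.23 ± 0.05 and 1.42 ± 0.12. It overlapped between unstimulated and LPS libraries (exact permutation p = 0.9) and did not overlap between IFN-β and LPS libraries (exact permutation p = 0.1). The ratio of *Lif* to *Osm*, the neighbouring ligand genes, was -5.75 ± 0.43 in unstimulated DCs, -3.80 ± 0.34 under LPS and -5.75 ± 0.40 under IFN-β. This ratio was higher by 1.94 under LPS than in unstimulated DCs, without overlap (exact permutation p = 0.1), so *Lif* rose more than *Osm* under LPS in these libraries. The ratio of *Il6* to *Il10* could be read in LPS libraries only, where *Il6* was 53.3-, 122- and 111-fold above *Il10* per length in libraries A, B and C.

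**Figure D3:**
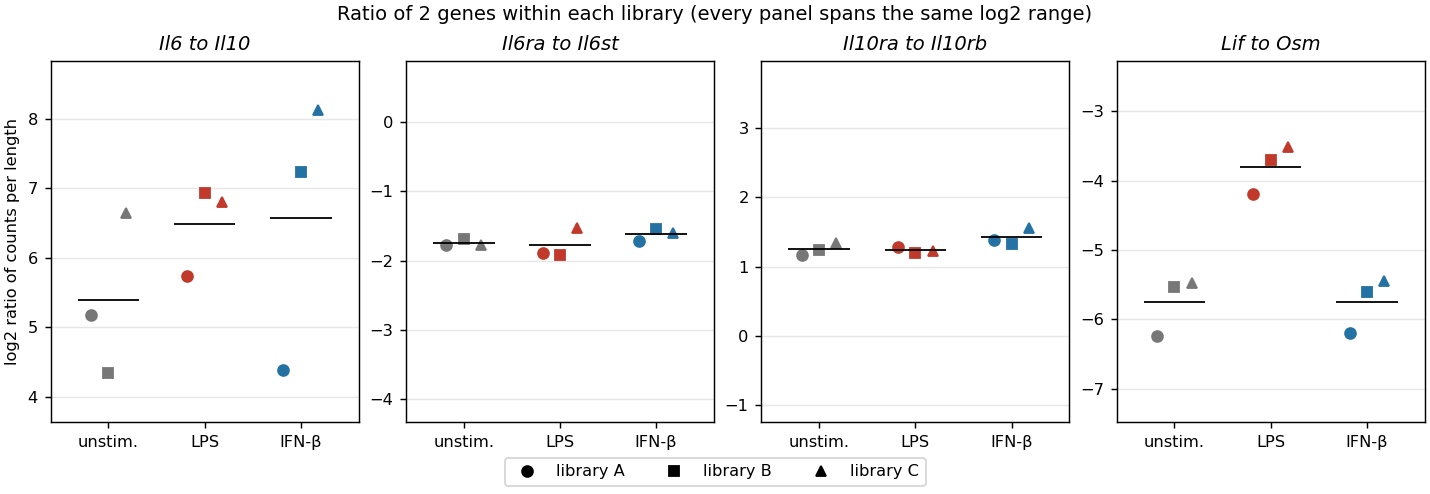
Log2 ratio of 2 genes per length within each library (y axis, with 0.5 added to each count; every panel spans the same range) by condition, with symbols for libraries A, B and C and bars for group means. The *Il6ra* to *Il6st* ratios overlap in all conditions (means of -1.75, -1.78 and -1.62), the *Lif* to *Osm* ratio is higher in the 3 LPS libraries, and the *Il6* to *Il10* ratio outside LPS rests on 0 to 4 *Il10* counts.

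Of 26 further genes of the 2 families, 12 had enough counts to be tested, and the other 14 had at most 9 counts in any library, 5 of them with 0 counts in all 9. Among the 4 tested gp130 ligands 3 rose under LPS and 1 under IFN-β, where 32.8% and 23.6% of all tested genes were higher. The count under IFN-β was close to that share. *Il27*, which encodes the p28 subunit of IL-27, had 40, 34 and 24 counts in unstimulated libraries, 5886, 6251 and 4901 in the LPS and 555, 389 and 452 in the IFN-β libraries. It thus rose under both, by 7.87 ± 0.21 and 3.96 ± 0.20 on the log2 scale (adjusted p = 1.2e-09 and 8.2e-07). *Ebi3*, the partner subunit of p28, rose by 2.11 ± 0.10 under LPS, and *Clcf1*, a ligand of the CNTF receptor, by 2.05 ± 0.14 (adjusted p = 3.3e-08 and 3.8e-07). Under IFN-β their log2 differences were 0.19 (adjusted p = 0.152) and -0.33 (adjusted p = 0.0882). With the letter as a block both passed the test, at adjusted p = 0.0488 and 0.0082, so that the count for IFN-β became 2 higher and 1 lower. *Cntf* differed by 0.26 ± 0.35 under LPS and 0.26 ± 0.34 under IFN-β and passed neither test.

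Of the 5 tested receptor chains that pair with gp130 or its relatives, 3 fell under LPS and 1 rose. Of all tested genes 35.4% were lower under LPS and 32.8% higher. *Lifr*, the LIF receptor chain, had 622, 1168 and 1078 counts in unstimulated libraries, 81, 141 and 109 in the LPS and 266, 462 and 450 in the IFN-β libraries. It fell by 2.68 ± 0.29 and by 1.11 ± 0.26 on the log2 scale (adjusted p = 1.1e-05 and 0.0052), opposite to its ligand under LPS. *Il31ra* fell by 2.11 ± 0.26 and *Il27ra* by 1.20 ± 0.11 under LPS (adjusted p = 3.1e-05 and 2.5e-06). Under IFN-β *Il27ra* fell by 0.41 ± 0.10 (adjusted p = 0.0066) and *Il31ra* differed by 0.07 ± 0.22 (adjusted p = 0.812). *Osmr*, the oncostatin M receptor chain, was at 1 to 17 counts in every library. Its log2 fold change under LPS was 1.95 ± 0.73 (adjusted p = 0.0353), and it no longer passed with scaling by library size alone (adjusted p = 0.109) or without unstimulated library A (adjusted p = 0.0977), unstimulated library B (0.113), LPS library A (0.0699) or LPS library C (0.127). *Il11ra1* differed by -0.15 ± 0.07 under LPS (adjusted p = 0.0819) and -0.09 ± 0.07 under IFN-β (adjusted p = 0.318) and passed neither test. It was called lower under LPS with the block (-0.15, adjusted p = 0.0222), and under both stimuli with upper-quartile factors (-0.24 and -0.17, adjusted p = 0.0051 and 0.0453) and with library size alone (-0.73 and -0.40, adjusted p = 1.2e-06 and 3.7e-04). With library size alone the 5 chains were thus 4 lower and 0 higher under LPS. That scaling shifted the median log2 fold change of all tested genes under LPS by -0.58 and called 12683 of the 16260 in either direction.

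Of 6 further IL-10 family ligands only *Il19* was tested. It lies 79729 bases from *Il10* with 0 genes between them. It had 0, 1 and 4 counts in unstimulated libraries, 36, 58 and 37 in the LPS and 3, 0 and 2 in the IFN-β libraries. Every LPS library was above all others, but like *Il10* it passed the filter on low counts only through the LPS libraries and therefore had to differ there. *Il20* and *Il24*, the next genes of that cluster, had 1 and 0 counts over all 9 libraries. Of the family's other receptor chains *Il20rb*, a chain of the IL-20 receptors, rose by 1.66 ± 0.13 under LPS and by 0.62 ± 0.12 under IFN-β (adjusted p = 7.2e-07 and 0.0022), and under scaling by library size alone the latter was 0.30 with adjusted p = 0.0685. *Ifnlr1*, which pairs with *Il10rb* in the λ interferon receptor, fell by 2.29 ± 0.35 under LPS (adjusted p = 1.5e-04). Under IFN-β its log2 difference was -0.75 ± 0.29 (adjusted p = 0.055), and with the letter as a block it passed (adjusted p = 0.0205).

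**Figure D4:**
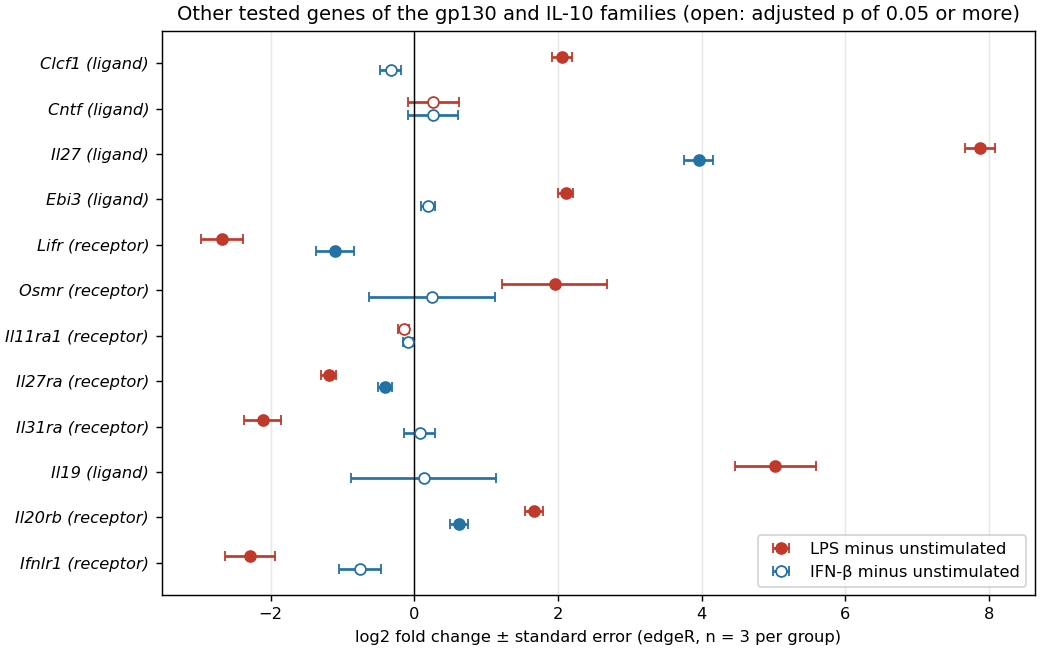
Log2 fold change against unstimulated DCs (x axis; bars, standard error from edgeR, n = 3 per group) of the 12 other tested ligands and receptors of both families, under LPS (red) and IFN-β (blue); open symbols have an adjusted p of 0.05 or more. *Il27* has the largest rise under both stimuli (7.87 and 3.96) and *Lifr* the largest fall (-2.68 and -1.11). The fitted values of *Il19* rest on 0 to 4 counts outside LPS. Its filled symbol under LPS is not a test, since *Il19* passed the filter on low counts only through the LPS libraries.

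The genes that relay the signal of these receptors were mostly higher under both stimuli. Of 17 genes of the JAK-STAT relay and its brakes 14 rose and 0 fell under LPS, where 32.8% of all tested genes were higher and 35.4% lower, and the list median log2 fold change was 0.90 beside -0.04 over all tested genes. Under IFN-β 10 rose and 0 fell, where 23.6% of all were higher and 23.3% lower, with a median of 0.48 beside -0.02. With scaling by library size alone the counts were 10 higher and 4 lower under LPS and 8 higher and 3 lower under IFN-β. *Socs3*, the brake on gp130, had the largest rise under LPS, from 64.6 ± 8.65 to 839 ± 54.2 CPM (SD, n = 3; log2 3.70 ± 0.16), and stood at 140 ± 29.2 CPM under IFN-β (log2 1.11 ± 0.14). *Stat3*, named here for its role rather than by the rule on extremes, rose by 1.73 ± 0.11 and 0.56 ± 0.11.

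Genes of receptor shedding and of the handling of IL-6 receptors made a list of 6. Under LPS 4 rose and 2 fell (of all tested genes, 32.8% and 35.4%), with a median of 0.98 beside -0.04 over all. Under IFN-β 5 rose and 0 fell (of all, 23.6% and 23.3%), with a median of 0.68 beside -0.02. *Rhbdf2*, a partner of the sheddase ADAM17, had the largest rise under both (log2 2.11 ± 0.09 and 0.96 ± 0.09). *Adam10*, another protease that cuts IL-6Rα, had the largest fall under LPS (-0.55 ± 0.09) and differed by 0.14 ± 0.09 under IFN-β (adjusted p = 0.218). *Adam17*, chosen after its values were seen, rose by 1.07 ± 0.11 and 0.63 ± 0.10.

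Of 16 listed regulators of *Il6* and *Il10* transcription, not split into activators and repressors, 13 rose and 0 fell under LPS. Of all tested genes 32.8% were higher there and 35.4% lower (list median 1.16 beside -0.04). Under IFN-β 9 rose and 1 fell, where 23.6% of all were higher and 23.3% lower (median 0.37 beside -0.02). Scaling by library size alone gave 10 higher and 4 lower under LPS and 3 higher and 4 lower under IFN-β. It called 12683 of all 16260 tested genes under LPS. *Nfkbiz*, which encodes IκBζ, a coactivator of *Il6*, had the largest rise under LPS (4.18 ± 0.15) and rose by 0.76 ± 0.14 under IFN-β. *Maf*, an activator of *Il10* in macrophages, had the largest rise under IFN-β (1.25 ± 0.42, adjusted p = 0.0304), a call that scaling by library size alone did not give (0.96, adjusted p = 0.0508), and rose by 3.02 ± 0.44 under LPS. *Cebpd* fell by 0.54 ± 0.16 under IFN-β (adjusted p = 0.0169).

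Among 10 regulators of cytokine mRNA stability 6 rose and 4 fell under LPS, where 32.8% of all tested genes were higher and 35.4% lower, with a median of 0.41 beside -0.04. Under IFN-β 3 rose and 2 fell, close to the shares over all tested genes (23.6% higher and 23.3% lower), with a median of 0.06 beside -0.02. Scaling by library size alone gave 3 higher and 5 lower under LPS and 1 higher and 5 lower under IFN-β, and turned both medians negative (-0.18 and -0.24). It called 12683 of all 16260 tested genes under LPS. *Arid5a*, whose product stabilises *Il6* mRNA, had the largest rise under both (2.63 ± 0.13 and 2.06 ± 0.13). *Zc3h12a*, chosen after its values were seen, encodes Regnase-1, which degrades *Il6* mRNA. It rose by 2.55 ± 0.11 under LPS and differed by 0.11 ± 0.11 under IFN-β (adjusted p = 0.434). *Zfp36l2* had the largest fall under LPS (-1.43 ± 0.18) and *Zfp36l1* under IFN-β (-0.31 ± 0.10).

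All 16 listed STAT3 target genes changed under LPS, 13 higher and 3 lower, where 32.8% of all tested genes were higher and 35.4% lower, with a median of 1.05 beside -0.04. The 13 include *Osmr*, whose call was lost without any 1 of the 4 libraries named above. Under IFN-β 7 rose and 1 fell, where 23.6% of all were higher and 23.3% lower, with a median of 0.28 beside -0.02, and the block on the letter gave 10 higher and 3 lower. Scaling by library size alone gave 7 higher and 3 lower under LPS and 5 higher and 4 lower under IFN-β, where the median became -0.03. Under LPS that scaling called 12683 of all 16260 tested genes, a larger share than in this list. *Socs3* again had the largest rise under LPS, and *Fos*, an immediate-early gene, the largest fall (-2.29 ± 0.58, adjusted p = 0.0046). *Il1rn*, which encodes the IL-1 receptor antagonist, had the largest rise under IFN-β (1.77 ± 0.12) and *Batf* the largest fall (-0.91 ± 0.18), although *Batf* rose by 2.21 ± 0.17 under LPS. *Socs3*, *Bcl3*, *Nfil3* and *Osmr* each stand in 2 of the 9 lists.

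**Figure D5:**
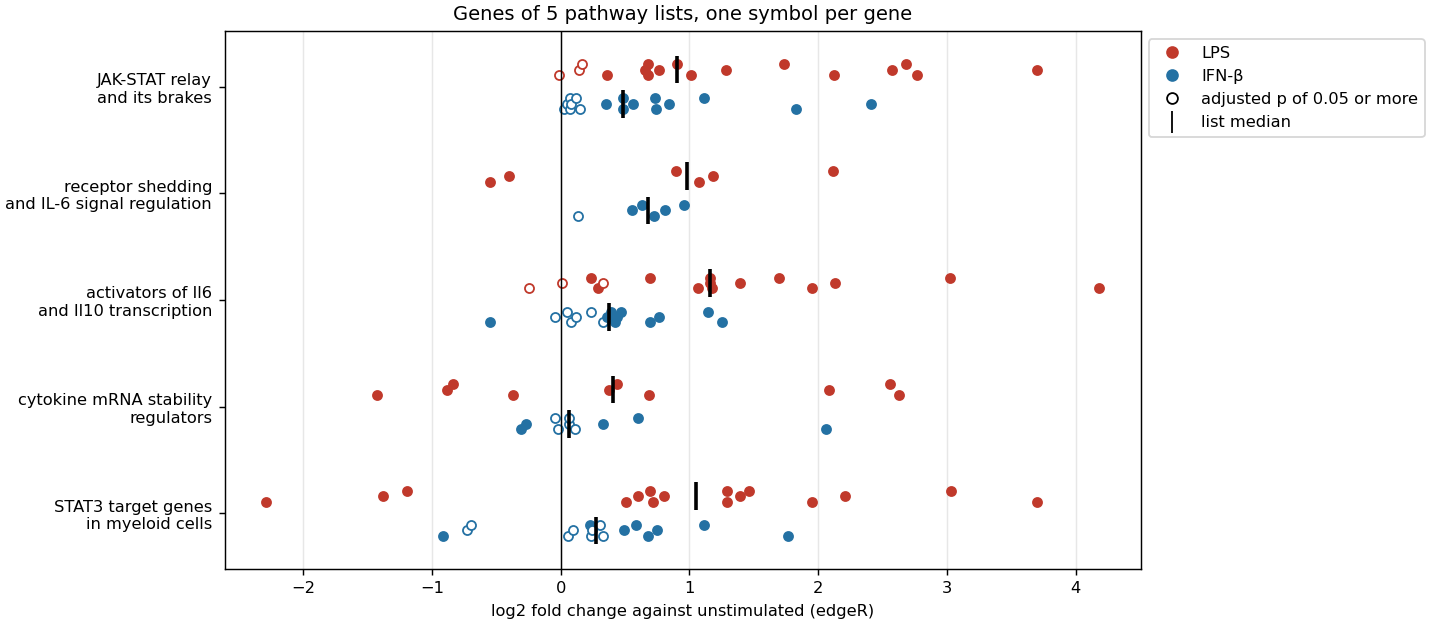
Log2 fold change against unstimulated DCs (x axis) of every tested gene of 5 pathway lists, under LPS (red) and IFN-β (blue), with open symbols where the adjusted p is 0.05 or more and black bars at list medians. The medians under LPS run from 0.41 to 1.16 and those under IFN-β from 0.06 to 0.68. The list labelled as activators holds regulators of *Il6* and *Il10* transcription that were not split into activators and repressors.

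Of 12809 genes with a mean of at least 1 CPM, those whose log2(CPM + 0.5) followed a ligand most closely over the 9 libraries were named as a description. For *Il6* they were *Slc1a2*, a glutamate transporter gene (r = 0.999), *Vdac3* (r = 0.999) and *Cd80*, a costimulatory gene (r = 0.998), and for *Il10* *Cand1* (r = 0.998), *Eif4g2* (r = 0.998) and *Appl1* (r = 0.996). For *Lif* they were *Nudt17* (r = 0.995), *Ppfibp2* (r = 0.994) and *Washc1* (r = 0.993), and for *Osm* *Dpf2* (r = 0.996), *Kif3c* (r = 0.994) and *Myo1g* (r = 0.994). The 9 points are 3 conditions of 3 libraries, so any gene that separates LPS from the rest scores high: 814 genes were over 0.95 for *Il6*, 539 for *Il10*, 503 for *Lif* and 847 for *Osm*. *Slc1a2* had a mean of 0.260 CPM unstimulated, 198 CPM with LPS and 1.40 CPM with IFN-β, and *Vdac3* had 64.0, 104 and 70.1 CPM, so likeness in pattern held across very different sizes of change. Between *Il6* and its own receptor genes r was -0.989 for *Il6ra* and -0.990 for *Il6st*.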

How the data were processed

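The data are RNA sequencing of cultured DCs, in 9 libraries, 3 per condition. The authors prepared libraries from total RNA depleted of ribosomal RNA, sequenced paired ends, trimmed adapters with Trim Galore (version 0.6.0 in the submitters' processing notes), mapped to GRCm38 with STAR (version 2.7.8a in those notes) and counted reads per gene on a GENCODE annotation. The deposited values are unnormalized, unfiltered counts of reads for each gene in each library. The strand column used is not given in the sources used here.

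Tests were run with edgeR 4.0.16 in R 4.3.3: TMM factors, filterByExpr with a minimum count of 10, which kept 16260 of 55471 genes, 1 term per condition over all 9 libraries and quasi-likelihood F-tests, with Benjamini-Hochberg adjustment over all tested genes and a threshold of 0.05. Standard errors were taken as the size of the log2 change over the root of F. CPM and RPKM used TMM-scaled library sizes and, for RPKM, the merged exon length in GENCODE M21, which held 55144 of the identifiers. Ratios within a library were compared by two-sided exact permutation tests. Only the edgeR fit of LPS against unstimulated was tried on simulated counts, in which few genes changed, equally in both directions. Most tested genes were called under LPS here, so that run does not check the scaling between libraries. Alternatives were DESeq2 1.42.0, other scalings and filters, 2 groups alone, the letter as a block, and leaving out each library.

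The libraries of a letter deviated together from their group means (9 correlations of 0.134 to 0.546, against at most 0.0622 for 18 pairs of unlike letters). This pairing is a hint from the data, since the labels do not say that a letter marks a shared culture.

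The named genes are the 8 members, every tested partner of both families, the genes of each list with the largest rise and fall under each stimulus, and the 3 genes most like each ligand. A result that this rule names is not reported here. The members, lists and motifs were chosen with earlier results of these data known.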

Additional observations from a re-analysis of the deposited data

How the results depend on the processing

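Each of the 8 genes was refitted in 3 comparisons under 16 alternatives, which gave 381 fits. Of these 375 stayed on the same side of the threshold, 5 lost the call, 1 gained it and 0 reversed a call. The 375 include the fits of *Il10* against LPS, which are not a test, and so do the counts of called genes below. The direction of *Il10* under IFN-β, which was not called, did change between fits. The 5 were *Il6ra* under IFN-β in 4 fits without 1 library and *Il10ra* between IFN-β and LPS under scaling by library size alone, and the 1 was *Lif* under IFN-β with the replicate block (log2 0.61, adjusted p = 0.0136). Pairing by this block changed no other call of the 8 genes. A minimum log2 change of 1 left 1 gene called under IFN-β, *Il6*, in place of 6, and 6 between the stimuli in place of 8. How many of all tested genes passed that minimum was not counted. Leaving out each library in turn gave 8 genes called under LPS, 5 to 6 under IFN-β and 8 between the stimuli, and the other alternatives apart from that minimum gave 7 to 8, 6 to 7 and 7 to 8. *Il10* gave no value where 10 counts were required in every library, and its log2 difference under IFN-β ran from -1.73 to 3.47 without a call. Under IFN-β *Osm* came closest to the threshold with library size scaling (0.28, adjusted p = 0.0497). The log2 fold change of *Il6* under LPS ran from 9.59 to 10.58 and that of *Lif* from 3.30 to 4.11. The size of the receptor changes depended on the scaling. With library size alone the log2 fold changes under LPS were 0.70 (*Il10ra*), 0.72 (*Il10rb*), -2.23 (*Il6ra*) and -2.20 (*Il6st*). Over all alternatives those under IFN-β ran from 0.62 to 0.996 (*Il10ra*) and 0.45 to 0.84 (*Il10rb*). They ran from -0.56 to -0.19 for *Il6ra* and from -0.69 to -0.30 for *Il6st*.

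List counts moved by over 1.5 times as follows. STAT3 targets changed under LPS numbered 10 with library size scaling in place of 16, and under IFN-β 13 with the replicate block in place of 8. The gp130 ligands changed under IFN-β numbered 2 with library size scaling or no filter, and 3 with the block or without unstimulated library A, in place of 1. IL-10 family partner receptors changed under IFN-β numbered 2 in place of 1 with upper-quartile factors, no filter, the block, or without unstimulated library A or B, and 1 in place of 2 under LPS and between the stimuli with 10 counts required everywhere. Without a filter 2 IL-10 family ligands changed under LPS in place of 1, which was *Il19* and had to differ there. Stability regulators changed under IFN-β numbered 3 in place of 5 without unstimulated library C or IFN-β library B. The cause of these shifts was not tested.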

Other observations

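*Maf*, which encodes an activator of *Il10* transcription, differed between the letters in each condition, and these values were picked out after they were seen. The counts (A, B and C in turn) were 1623, 1092 and 525 without a stimulus, 7392, 6462 and 5779 with LPS and 4051, 1946 and 1368 with IFN-β, so library A was the highest in each. *Il10* under LPS was also highest in library A, with 431, 209 and 314 counts, and the 4 *Il10* counts under IFN-β were all in library A. The letters did not match throughout. Under LPS *Il10* was lowest in library B and *Maf* in library C, and the only unstimulated *Il10* count was in library B. With 3 libraries per condition no relation between the 2 genes was tested.

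*Sorl1*, which encodes a sorting receptor that carries IL-6Rα, was also named after its values were seen. It had 2634, 2673 and 3450 counts in unstimulated libraries, 1440, 1653 and 1816 with LPS and 4882, 3933 and 5066 with IFN-β. It fell by 0.40 ± 0.12 on the log2 scale under LPS (adjusted p = 0.0128) and rose by 0.81 ± 0.12 under IFN-β (adjusted p = 3.5e-04, edgeR).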
